A study of Mus musculus with 6 samples.

Results

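Neurons differ from the stem cells that give rise to them in a set of genes for splicing, cytoskeleton and transmitter release, and 38 such genes, named from their known roles, are described here out of the 32493 genes counted by RNA-seq. They fall into 6 groups: RNA-binding and splicing regulators, microtubule-associated and growth cone proteins, neuronal intermediate filaments, synaptic vesicle and fusion proteins, granins of dense-core vesicles, and surface and other neuronal proteins. The cells were neural stem cells (NSCs) taken from the lateral ventricles of E14.5 mouse embryos on a C57BL/6J background and grown as cultures for 3 generations. The cko embryos were fl/fl for miR-151 and carried Emx1-IRES-Cre, which is active in the dorsal telencephalon, whereas ctrl embryos were fl/fl without Cre, which the sample labels call wt. Cells of the culture that do not descend from this lineage keep their floxed alleles. *Mir151* was not among the counted genes, so the genotype labels could not be checked by it.

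The count table held 3 cko and 3 ctrl columns. The column of ctrl 2 equalled the mean of ctrl 1 and ctrl 3, rounded up, in 32493 of 32493 genes, so 5 libraries entered the comparison, 2 ctrl and 3 cko. Their totals ran from 17883796 to 23335736 counts. At these totals 3 counts corresponded to 0.129 to 0.168 CPM (counts scaled to library size, normalised by TMM in all values given here), which covers counting error only. The study describes cko and ctrl embryos as littermates, but neither it nor the labels say which libraries share a litter or came from separate embryos, so each p-value measures the spread between these libraries, which may be technical.

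In a neuron, RNA-binding proteins of the ELAV, RBFOX and CELF families stabilise and splice neuronal transcripts. Microtubule-associated proteins and growth cone proteins shape the axon and dendrites, and neurofilaments set the calibre of the axon. At the presynaptic terminal, SNARE proteins fuse synaptic vesicles with the membrane, synaptotagmins sense calcium for that fusion, and granins load dense-core vesicles with peptides. Several of these genes are also expressed outside neurons, *Ncam1* in glial cells among them.

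Of the 38 genes, 35 passed the filter on low counts. *Stmn2*, *Nefl* and *Nefh* did not, and reached at most 2.56 CPM in any library. By edgeR's quasi-likelihood test with Benjamini-Hochberg adjustment over all 16710 tested genes, 9 of the 35 rose and 6 fell in cko NSCs (called, adjusted p under 0.05), and 20 were not called. The 9 are 25.7% of the tested genes of the set, against 7.86% of all tested genes called higher. The 6 are 17.1%, against 8.57% called lower. The genes were chosen with earlier results of these data known, so these shares and the medians below describe this list only. Log2 fold changes, cko over ctrl, ran from -2.93 for *Sncb* to 1.92 for *Rbfox1*. Their median was 0.12, against -0.003 over all genes, and the median size of the change without its sign was 0.425, against 0.256. Thus the set moved in both directions, with 19 positive and 16 negative log2 fold changes. Over all tested genes the split was near even as well, with 8312 positive and 8398 negative. All cko libraries lay above both ctrl libraries in 14 of the 35 genes, against 25.4% of all tested genes. They lay below both in 9 (25.7%), which is near the 24.3% of all tested genes.

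**Figure D1:**
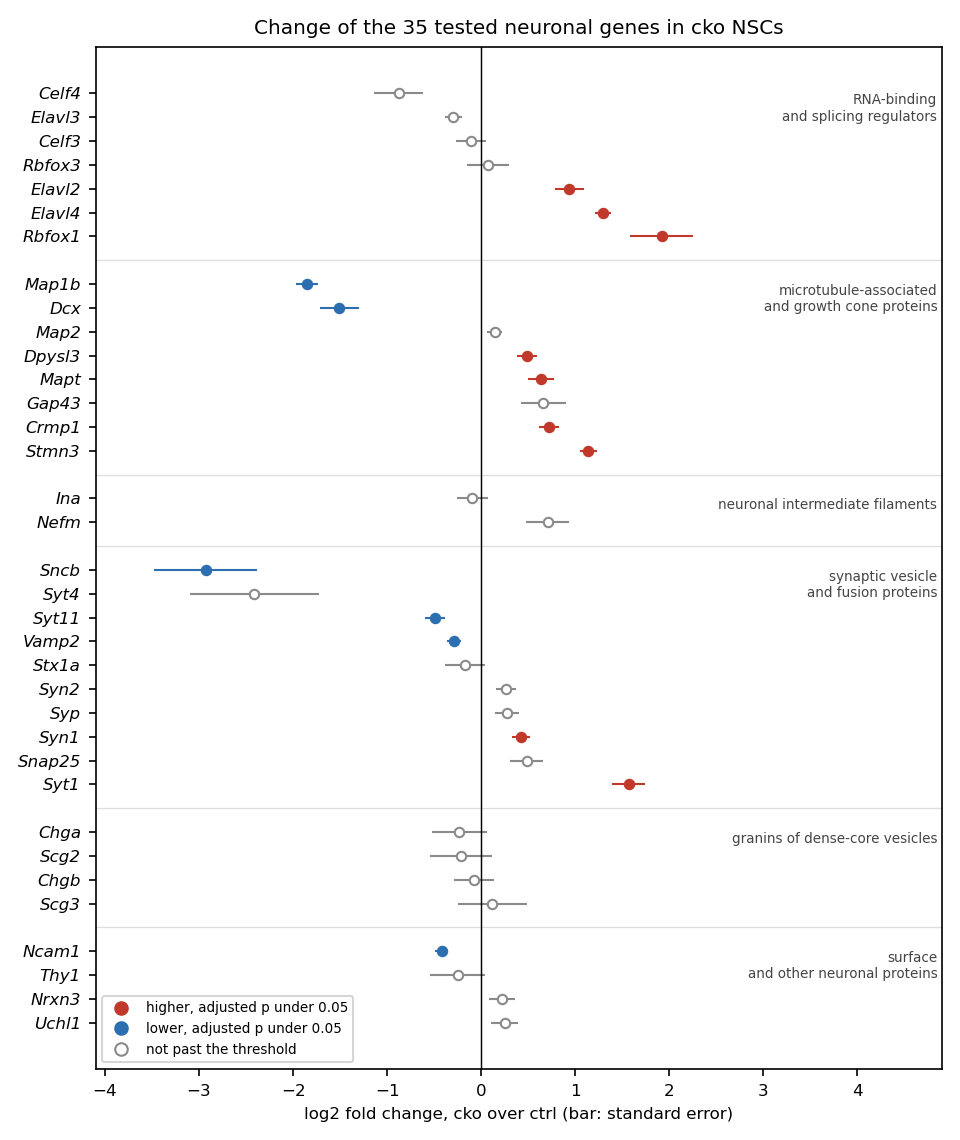
Log2 fold change (cko over ctrl, horizontal axis) of the 35 tested genes, in 6 groups by role, with bars for the standard error. Red points are the 9 genes called higher, blue points the 6 called lower and open points the 20 not called, and the called genes run from -2.93 for *Sncb* to 1.92 for *Rbfox1*.

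Because these are bulk cultures, fewer cells of a type and less RNA per cell cannot be told apart. The NSC markers were abundant, at a summed 7440 to 9480 CPM, and none of the 10 was under 1 CPM in every library. Of these, *Nes* (0.98), *Hes5* (0.93) and *Prom1* (0.695) rose on the log2 scale and *Slc1a3* fell (-0.79). Markers of postmitotic neurons summed to 76.3 and 80.6 CPM in ctrl and to 106, 96.9 and 105 CPM in cko. Of these 10 markers, *Neurod2*, *Neurod6*, *Tbr1* and *Slc17a7*, which define cortical excitatory neurons, stayed under 1 CPM in every library. Of the 7 tested, 2 rose: *Bcl11b*, a transcription factor of deep-layer neurons, by a log2 fold change of 0.77, and *Gad1*, which makes GABA, by 0.69. Intermediate progenitor markers summed to at most 16.8 CPM in ctrl and to 19.6 to 22.1 CPM in cko, with *Eomes* under 1 CPM throughout.

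Markers of glia moved with genotype as well. Astrocyte markers summed to 3060 and 2060 CPM in ctrl and to 1870, 1250 and 1260 CPM in cko, with 4 of 8 lower and 0 higher. Of 12 oligodendrocyte lineage markers 7 fell and 2, *Olig1* and *Olig2*, rose. Their sum was 3920 and 4580 CPM in ctrl and 3800 to 3940 CPM in cko. The 6 microglial markers summed to at most 0.8 CPM, and the endothelial and mural markers to at most 7.4 CPM. The part of these marker changes in the results on the neuronal genes was not tested. Sex-linked transcripts also followed genotype: *Xist*, the RNA that coats the inactive X chromosome, measured 2889 and 2557 CPM in ctrl and 786.6, 848.9 and 893.6 CPM in cko (log2 fold change -1.69, adjusted p 0.000367), and Y-linked *Kdm5d* rose by 1.40. All libraries held both, and 3 of the 38 genes, *Dcx*, *Syp* and *Syn1*, lie on the X chromosome. The part of sex composition in their values was not tested.

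The RNA-binding group held 7 genes, all tested, of which 3 rose (42.9%, against 7.86% of all tested genes) and 0 fell (against 8.57%). *Elavl4* (HuD), which stabilises neuronal transcripts, measured 34.1 and 30.2 CPM in ctrl and 79.2, 77.7 and 80.4 CPM in cko. All cko libraries stood far above both ctrl libraries and close to one another, and the log2 fold change was 1.30 ± 0.09 (SE, adjusted p 0.000668). *Elavl2* (HuB), its paralog, measured 22.8 and 16.1 CPM in ctrl and 39.3, 34.9 and 37.5 CPM in cko. Again the groups did not overlap (0.94 ± 0.16, adjusted p 0.00904), although without cko 3 the adjusted p was 0.0517. *Elavl3* (HuC), the third neuronal ELAV gene, measured 85.3 and 87.4 CPM in ctrl and 76.9, 65.5 and 68.8 CPM in cko. Here every cko library was below both ctrl libraries, but the gene was not called (-0.295 ± 0.089, adjusted p 0.062). It was called by DESeq2 (adjusted p 0.0486) and without cko 1 (0.0441), and not without any other library (adjusted p 0.0542 to 0.212). Per exon length, *Elavl4* stood at 0.512 and 0.442 times the level of *Elavl3* in ctrl and at 1.32, 1.52 and 1.5 times in cko, so that the order of these genes was opposite in the genotypes.

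*Elavl4* (ENSMUSG00000028546) is annotated on the minus strand of chromosome 4 at chr4:110203722-110351909 (GRCm38, GENCODE M21). RefSeq lists several starts for it. The window around an internal start, 250 bases before it to 50 after, is shown because it holds the E-box CAGCTG, a hexamer bound by basic helix-loop-helix factors such as the proneural proteins. It lies at chr4:110287478-110287777 on the minus strand (GRCm38.p6), with the E-box in capitals.
Elavl4: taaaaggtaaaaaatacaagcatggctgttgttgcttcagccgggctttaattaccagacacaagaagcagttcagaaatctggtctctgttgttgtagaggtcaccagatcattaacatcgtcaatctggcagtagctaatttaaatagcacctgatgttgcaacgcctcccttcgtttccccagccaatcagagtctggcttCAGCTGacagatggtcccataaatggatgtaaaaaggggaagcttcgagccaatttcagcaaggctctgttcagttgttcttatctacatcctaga
Such windows were found for 25 of the 38 genes, 46 windows in all, and CAGCTG, which reads the same on both strands, occurred in the windows of 10 of these genes (40.0%), against 18.3% of 27025 genes. Counted by window, this was 32.6% of the 46, against 16.3% of 32851. Windows of neighbouring starts overlap, as in *Elavl4*, so a share by window can count the same hexamer more than once. The genes were *Celf3*, *Chga*, *Chgb*, *Elavl2*, *Elavl3*, *Elavl4*, *Ina*, *Rbfox1*, *Stx1a* and *Syt1*. By call, 4 of 7 genes that rose held it, 0 of 4 that fell and 6 of 14 that were not called. Genes with several starts have more windows in which a hexamer can occur, and a match is a description of the letters, not a bound site.

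*Rbfox1*, a splicing regulator of neuronal and synaptic transcripts, had the largest positive fold change of the 35 genes at a low level, 0.612 and 1.12 CPM in ctrl and 2.91, 3.22 and 3.59 CPM in cko. These rest on 14 and 21 counts in ctrl and 52, 75 and 78 in cko, without overlap. It rose by a log2 fold change of 1.92 ± 0.34 (adjusted p 0.0110), and the adjusted p was 0.0576 without cko 2 and 0.0624 without cko 3. *Rbfox3*, which encodes the neuronal antigen NeuN, had overlapping groups between 4.76 and 6.83 CPM (0.07, adjusted p 0.856). *Celf3* overlapped too (-0.11, adjusted p 0.685). *Celf4*, a translational regulator in neurons, measured 5.64 and 5.55 CPM in ctrl and 2.97, 2.27 and 3.91 CPM in cko, below both ctrl libraries, and missed the threshold (-0.88 ± 0.26, adjusted p 0.0603). DESeq2 called it, with an adjusted p of 0.0294. Thus of the 7 genes the called ones were a pair of ELAV genes and *Rbfox1*, all higher.

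**Figure D2:**
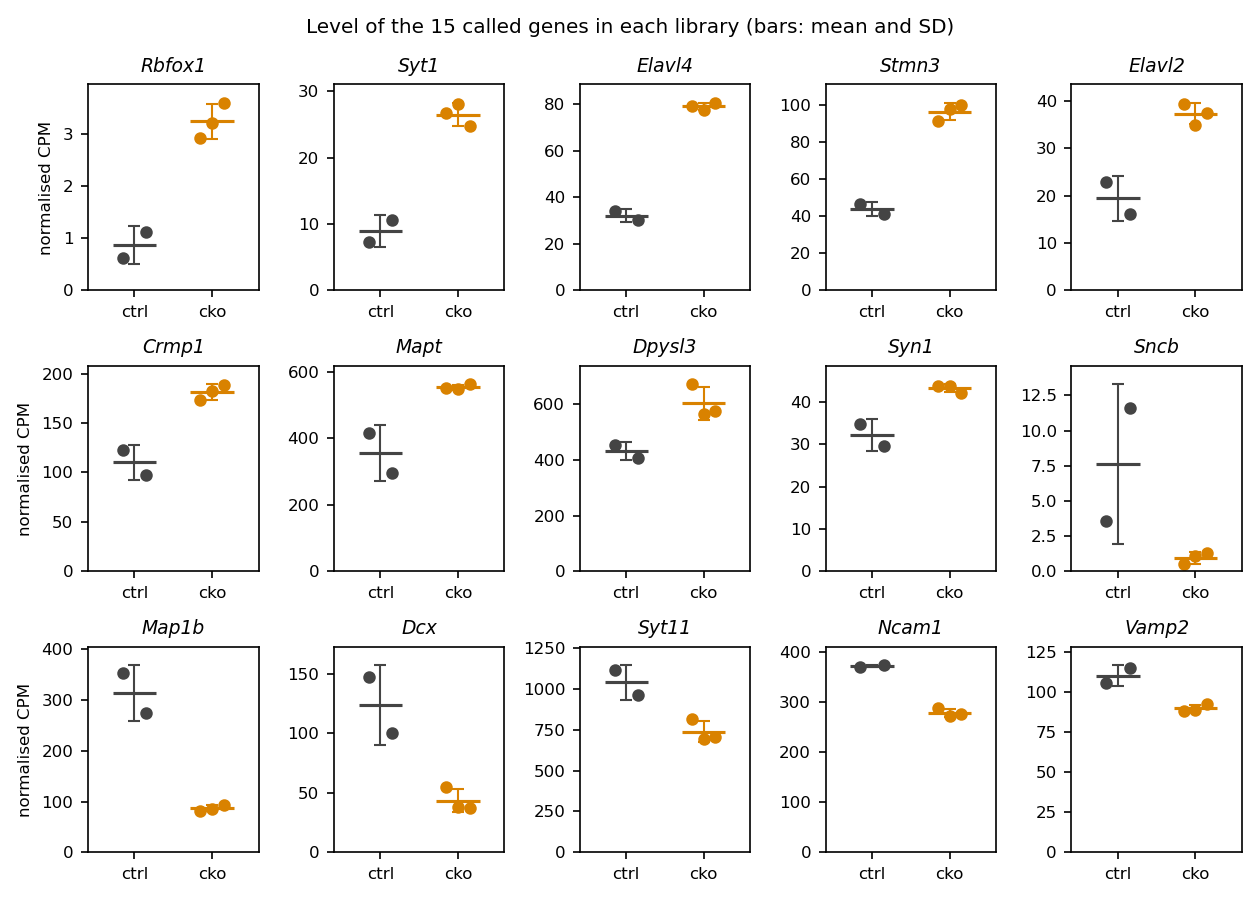
Normalised CPM (vertical axis, from 0) of the 15 called genes in each library, 1 panel a gene, with grey points for the 2 ctrl and orange points for the 3 cko libraries and bars for the mean and SD. In every panel the points of the genotypes are apart, and the ctrl points are far from each other in *Sncb* (3.58 and 11.6 CPM).

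The microtubule and growth cone group had the highest share of called genes, with 4 higher and 2 lower among 8 tested of 9. *Map1b*, a microtubule-associated protein of growing axons, measured 352 and 274 CPM in ctrl and 81.8, 85.5 and 92.9 CPM in cko. It fell without overlap by a log2 fold change of -1.85 ± 0.12 (adjusted p 0.000490). *Dcx* (doublecortin), which bundles microtubules in migrating young neurons, measured 148 and 100.2 CPM in ctrl and 54.8, 38.5 and 37.4 CPM in cko. It fell by -1.51 ± 0.21 (adjusted p 0.00486), and both calls held in all 12 alternative processings. These genes were the only called members of the group in the lower direction.

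Their promoter windows are shown as those of the genes that fell most firmly, since both calls held throughout. They hold no CAGCTG, nor do the windows of 3 of the 7 genes that rose, and a difference by direction was not tested. *Map1b* (ENSMUSG00000052727) lies on the minus strand at chr13:99421446-99516540 and *Dcx* (ENSMUSG00000031285) on the minus strand at chrX:143855842-143933311. The windows are chr13:99516553-99516852 and chrX:143933170-143933469, both minus strand (GRCm38.p6, RefSeq). Capitals mark the GC box GGGCGG, to which Sp1-type factors bind, and TATAAA, the letters of a TATA box. Each was searched on both strands and at any distance from the start, so a match describes the letters only.
Map1b: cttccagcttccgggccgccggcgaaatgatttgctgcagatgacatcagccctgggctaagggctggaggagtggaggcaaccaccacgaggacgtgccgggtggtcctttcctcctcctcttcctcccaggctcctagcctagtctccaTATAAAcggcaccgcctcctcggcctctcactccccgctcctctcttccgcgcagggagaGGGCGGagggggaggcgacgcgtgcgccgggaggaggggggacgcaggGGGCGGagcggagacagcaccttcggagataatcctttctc
Dcx: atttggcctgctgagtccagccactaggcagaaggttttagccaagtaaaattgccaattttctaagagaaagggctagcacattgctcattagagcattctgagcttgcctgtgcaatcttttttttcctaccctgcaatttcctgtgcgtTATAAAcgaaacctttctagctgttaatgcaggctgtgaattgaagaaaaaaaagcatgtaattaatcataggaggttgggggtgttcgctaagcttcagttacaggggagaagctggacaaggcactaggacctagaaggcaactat
The letters TATAAA occurred in 5 of the 25 genes (20%), against 15.7% of all, and a GC box in 16 (64.0%), against 38.2%. The median GC content of the 46 windows was 57.0%, against 52.7% over all windows, and they held a median of 13 CpG dinucleotides, against 7. The other E-box searched, CACGTG, occurred in 0 of the 25, against 8.09%, and the core TGGGAA, at which the Notch effector RBPJ binds, in 5 (20%), against 28.3%. Half-sites of the RE1 element, through which REST silences neuronal genes, were rare: TCAGCACC was in *Scg2* and *Syn1* (8.0%, against 1.85%) and GGACAGCG in *Crmp1* (4.0%, against 1.48%).

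*Stmn3*, a stathmin that destabilises microtubules, measured 46.4 and 41.2 CPM in ctrl and 91.4, 98.0 and 100.1 CPM in cko. It rose with no overlap by 1.14 ± 0.09 (adjusted p 0.00106). Its paralog *Stmn2*, a marker of growing axons, had 4 and 48 counts in ctrl and 1, 4 and 2 in cko and was not tested. In this gene 1 ctrl library held nearly all counts. *Crmp1*, which relays semaphorin signals to the cytoskeleton, measured 123 and 97.8 CPM in ctrl and 173, 182 and 189 CPM in cko. It rose by 0.72 ± 0.11 (adjusted p 0.00645). *Dpysl3* (CRMP4), of the same family, measured 454 and 408 CPM in ctrl and 672, 564 and 576 CPM in cko. It rose by 0.49 ± 0.10 (adjusted p 0.0214), with adjusted p of 0.0753 without cko 2 and 0.084 without cko 3.

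*Mapt* (tau), the axonal microtubule-associated protein, measured 415 and 295 CPM in ctrl and 550, 547 and 562 CPM in cko. The cko libraries agreed closely and stood above a wider ctrl pair (0.64 ± 0.14, adjusted p 0.0222). Leaving out cko 1, cko 2 or cko 3 gave adjusted p of 0.0664, 0.0915 and 0.0968. *Map2*, its dendritic counterpart, measured 1032 and 959 CPM in ctrl and 1084, 1090 and 1124 CPM in cko. Every cko library was above both ctrl libraries, but the difference was small (0.14 ± 0.08, adjusted p 0.248). The gene was called in 0 of the 12 alternatives. Their lowest adjusted p, 0.0551, came from the DESeq2 fit of all 6 columns, which enters the averaged ctrl 2 as a library. *Gap43*, a growth cone phosphoprotein, measured 79.4 and 135.9 CPM in ctrl and 134.8, 197 and 178 CPM in cko. Its groups overlapped, since cko 1 lay just under ctrl 3, and it was not called (0.66 ± 0.24, adjusted p 0.104). Without ctrl 3 it was called (1.101, adjusted p 0.00361) and without ctrl 1 the value was 0.31 (adjusted p 0.247), and DESeq2 gave an adjusted p of 0.0378.

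On the per-length scale, ratios between cytoskeletal genes set these levels side by side. The level of *Mapt* was 2.48 and 2.27 times that of *Map1b* in ctrl and 14.2, 13.5 and 12.7 times in cko. The level of *Stmn3* was 3.50 and 4.58 times that of *Dcx* in ctrl and 18.5, 28.4 and 29.8 times in cko. *Mapt* stood at 0.877 and 0.672 times *Map2* in ctrl and at 1.11, 1.1 and 1.09 times in cko. The ratio of *Crmp1* to *Dpysl3*, which both rose, was 0.253 and 0.225 in ctrl and 0.242, 0.303 and 0.307 in cko, with overlap. In the ratios to *Map1b* and *Dcx* a gene that rose is divided by a gene that fell, so their direction follows from the calls, and no ratio was tested on its own.

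Neurofilaments were scarce. Of the 4 intermediate filament genes, *Nefl* (4 and 7 counts in ctrl, 1, 1 and 6 in cko) and *Nefh* (9 and 0 in ctrl, 0, 1 and 1 in cko) were not tested. *Nefm*, the medium chain, measured 3.63 and 2.61 CPM in ctrl and 5.37, 4.67 and 5.33 CPM in cko. All cko libraries were above ctrl without a call (0.71 ± 0.23, adjusted p 0.0771), and without ctrl 1 it was called (0.96, adjusted p 0.0314), while without ctrl 3 the value was 0.50 (adjusted p 0.175). *Ina* (alpha-internexin), a filament of developing neurons, overlapped (-0.09, adjusted p 0.740). *Nefl* and *Nefm* lie on opposite strands and share 1108 exon bases, and *Ina* shares 456 with *Nt5c2*. How the reads were assigned to strands is not given in the sources used here, so these genes are uncertain, as are *Syp*, *Syt4* and *Uchl1*, which share 875, 566 and 295 exon bases with a gene on the other strand.

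The synaptic vesicle group split, with 2 genes higher, 3 lower and 5 not called among 10. *Syt1*, the calcium sensor of fast synchronous release, measured 7.30 and 10.6 CPM in ctrl and 26.7, 28.1 and 24.7 CPM in cko. It rose without overlap by 1.57 ± 0.18 (adjusted p 0.00257), in all 12 alternatives. *Syt11*, a synaptotagmin that does not bind calcium, measured 1112 and 964 CPM in ctrl and 815, 694 and 705 CPM in cko. It fell by -0.493 ± 0.105 (adjusted p 0.0212), with adjusted p of 0.115 without cko 2 and 0.108 without cko 3. *Syt4*, its close paralog, had 11 and 37 counts in ctrl and 3, 5 and 6 in cko. These groups did not overlap, and the gene was not called (-2.41 ± 0.69, adjusted p 0.0529). It was called by DESeq2 (adjusted p 0.026) and without ctrl 1 (-3.13, adjusted p 0.00497), while without ctrl 3 the value was -1.09 (adjusted p 0.366). Per exon length, in a ratio whose direction follows from the calls, *Syt1* stood at 0.00409 and 0.00687 times *Syt11* in ctrl and at 0.0205, 0.0253 and 0.0219 times in cko, so *Syt11* remained far more abundant in both genotypes.

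*Syt1* (ENSMUSG00000035864) spans chr10:108497650-109010982 on the minus strand. The window of a start inside the annotated gene, chr10:109009062-109009361 on the minus strand (GRCm38.p6, RefSeq), is shown with its E-box CAGCTG in capitals, for comparison with that of *Elavl4* above.
Syt1: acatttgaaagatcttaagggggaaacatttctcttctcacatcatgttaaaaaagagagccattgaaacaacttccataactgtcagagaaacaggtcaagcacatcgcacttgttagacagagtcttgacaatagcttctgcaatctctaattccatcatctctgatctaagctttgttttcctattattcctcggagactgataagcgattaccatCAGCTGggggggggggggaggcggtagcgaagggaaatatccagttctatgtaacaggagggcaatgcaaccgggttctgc
*Syt1* and *Elavl4* each also had a window with no CAGCTG, at the outermost start.

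*Sncb* (beta-synuclein), a protein of presynaptic terminals, fell most of all 35 genes, with 3.58 and 11.6 CPM in ctrl and 0.504, 1.07 and 1.33 CPM in cko. The groups were apart although the ctrl libraries themselves were more than 2-fold apart. The log2 fold change was -2.93 ± 0.55 (adjusted p 0.0138), and without cko 1, cko 2 or cko 3 the adjusted p was 0.0529, 0.0691 and 0.0552. Without ctrl 3 the log2 fold change was -1.85 and without ctrl 1 it was -3.555. *Vamp2*, the vesicle SNARE, measured 105 and 115 CPM in ctrl and 88.2, 89.0 and 92.3 CPM in cko. It fell by -0.293 ± 0.075 (adjusted p 0.0379), a small difference that was not called without cko 1, cko 2, cko 3 or ctrl 3 (adjusted p 0.0918, 0.149, 0.118 and 0.0795).

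Among the proteins that coat or tether vesicles, *Syn1* (synapsin I) measured 34.9 and 29.5 CPM in ctrl and 43.9, 43.8 and 42.2 CPM in cko. It rose by 0.425 ± 0.099 (adjusted p 0.0287), and this call was lost without cko 1, cko 2, cko 3 or ctrl 3 (adjusted p 0.0779, 0.123, 0.105 and 0.0513). *Syn2* (synapsin II) measured 74.7 and 87.8 CPM in ctrl and 90.1, 93.8 and 108.5 CPM in cko. It was not called (0.26, adjusted p 0.148), was called without ctrl 3 (0.39, adjusted p 0.0409), and had a value of 0.14 without ctrl 1 (adjusted p 0.411). *Snap25*, the SNARE of the plasma membrane, measured 5.77 and 4.91 CPM in ctrl and 7.33, 7.97 and 7.12 CPM in cko (0.48, adjusted p 0.104). *Syp* (synaptophysin) measured 16.9 CPM in both ctrl libraries and 21.1, 21.8 and 18.3 CPM in cko (0.275, adjusted p 0.170). In these genes cko lay above ctrl in every library without a call. *Stx1a*, the syntaxin partner of *Snap25*, overlapped (-0.17, adjusted p 0.618). Of the SNARE genes only *Vamp2* was called, and differences between them were not tested. The per-length ratio of *Vamp2* to *Snap25* was 32.6 and 41.7 in ctrl and 21.5, 19.9 and 23.1 in cko, without overlap, and that of *Vamp2* to *Stx1a* was 9.08 and 7.07 in ctrl and 7.94, 8.03 and 6.28 in cko, with overlap.

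**Figure D3:**
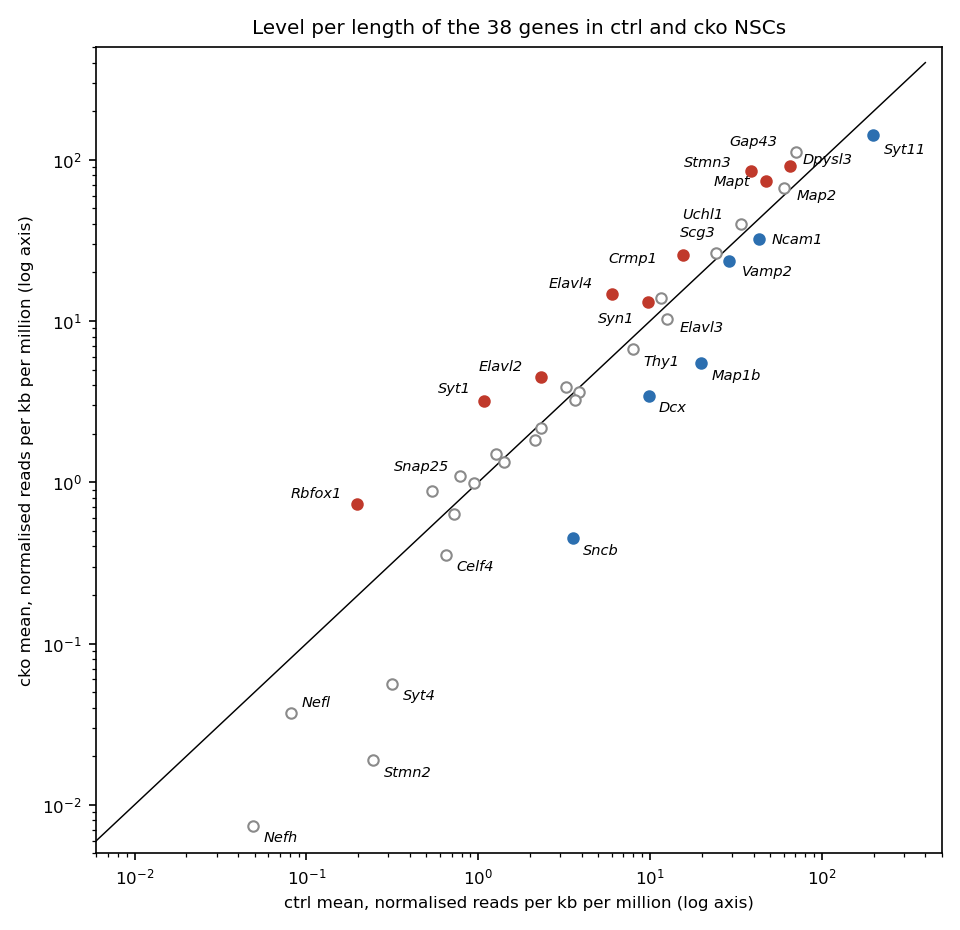
Mean level per exon length (RPKM, both axes logarithmic) of the 38 genes in ctrl (horizontal) and cko (vertical), with the line of equal levels. Red points were called higher, blue points lower and open points not called or not tested, and *Syt11* is highest in both genotypes, at 199.5 and 141.8.

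The granins gave no call in either direction. *Scg2*, *Chga* and *Chgb*, precursors of secreted peptides, had log2 fold changes of -0.21, -0.23 and -0.08 (adjusted p 0.700, 0.629 and 0.837), with overlap in each. *Scg3*, which anchors granin aggregates to the vesicle membrane, measured 98.0 and 33.9 CPM in ctrl and 79.8, 67.6 and 68.1 CPM in cko. The ctrl libraries lay on either side of all cko libraries (0.12 ± 0.37, adjusted p 0.86). Without ctrl 1 *Scg3* was called higher (1.07, adjusted p 0.000668) and without ctrl 3 lower (-0.445, adjusted p 0.0212), so its direction depended on a single ctrl library.

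In the last group 1 of 4 genes fell (25.0%, against 8.57% of all tested genes) and 0 rose. *Ncam1*, the neural cell adhesion molecule, measured 370.5 and 373 CPM in ctrl and 288, 271 and 275 CPM in cko. It fell by -0.42 ± 0.07 (adjusted p 0.00948), with adjusted p of 0.0742 without cko 2 and 0.0693 without cko 3. *Thy1*, a surface glycoprotein of mature neurons, measured 15.3 and 32.3 CPM in ctrl and 23.8, 18.6 and 17.5 CPM in cko. As in *Scg3*, the ctrl libraries enclosed all cko libraries (-0.25 ± 0.29, adjusted p 0.601), and without ctrl 1 the value was -0.71 (adjusted p 0.019) and without ctrl 3 it was 0.38 (adjusted p 0.191). *Uchl1* (PGP9.5), a neuronal ubiquitin hydrolase, measured 64.5 and 45.8 CPM in ctrl and 61.1, 65.5 and 70.2 CPM in cko. It overlapped (0.25, adjusted p 0.279) and was called without ctrl 1 (0.51, adjusted p 0.00989), while without ctrl 3 the value was 0.029 (adjusted p 0.864). *Nrxn3*, a presynaptic adhesion receptor, overlapped as well (0.22, adjusted p 0.316).

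**Figure D4:**
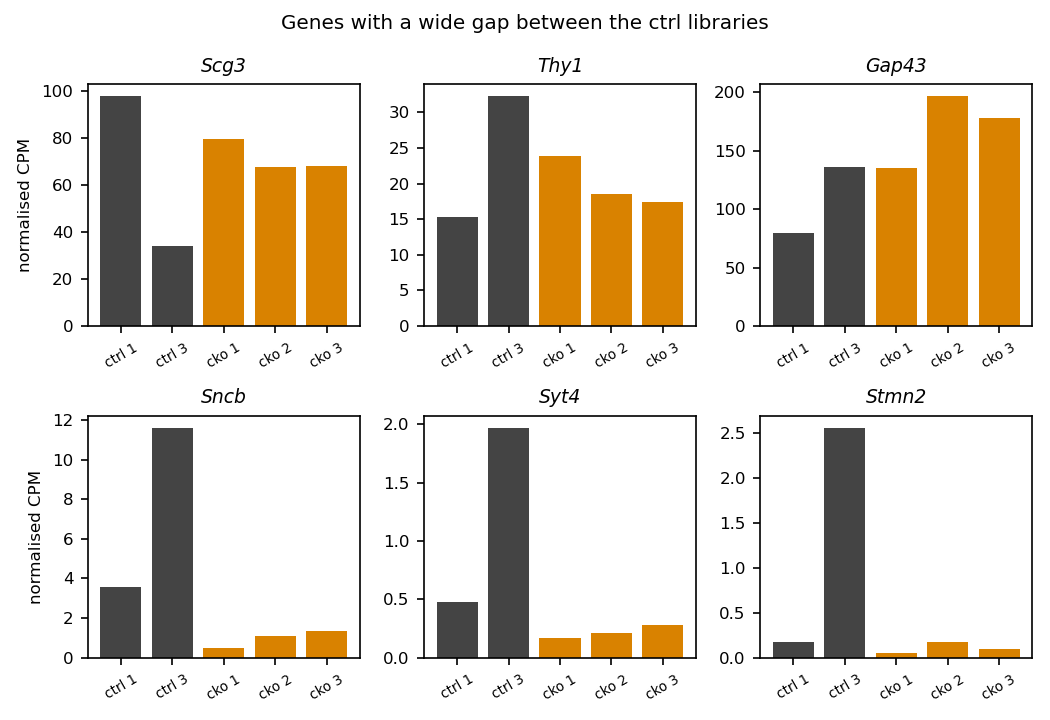
Normalised CPM (vertical axis, from 0) in each of the 5 libraries for 6 genes whose ctrl libraries differ widely, 1 bar a library. In *Scg3* and *Thy1* the ctrl bars enclose all cko bars, while in *Sncb*, *Syt4* and *Stmn2* the tallest bar is ctrl 3.

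The ctrl libraries differed from each other in several of these genes. They were more than 2-fold apart in 4 of the 35 genes, *Syt4*, *Sncb*, *Scg3* and *Thy1*, against 7.92% of all tested genes. *Syt4*, *Sncb*, *Thy1* and the untested *Stmn2* were higher in ctrl 3, and *Scg3* in ctrl 1. The astrocyte marker *Gfap* was also unequal between the ctrl libraries, at 1008 and 178 CPM, and its part in these values was not tested.

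By level per exon length, in CPM divided by the exon length in kilobases (RPKM), the 38 genes spanned from 199.5 for *Syt11* to 0.0492 for *Nefh* in ctrl. The median of all tested genes in ctrl was 5.03 RPKM, and 18 of the 35 tested genes of the set were above it. *Syt11*, *Gap43* (70.7 RPKM), *Dpysl3* (65.2) and *Map2* (60.55) led in ctrl. In cko *Stmn3* moved from rank 7 to rank 4 (38.6 to 85.0 RPKM), *Elavl4* from 18 to 12 (5.97 to 14.7) and *Crmp1* from 12 to 10 (15.6 to 25.75). *Map1b* went from rank 11 to 17 (19.7 to 5.47 RPKM), *Dcx* from 15 to 21 (9.795 to 3.446) and *Sncb* from 21 to 33 (3.55 to 0.452). The summed share of counts held by all 38 genes was nevertheless 0.42% to 0.481% in every library, with *Map1b*, *Dcx* and *Syt11* lower and *Mapt*, *Dpysl3* and *Crmp1* higher in cko. By group, the summed level of the RNA-binding genes was 168 and 157 CPM in ctrl and 221, 201 and 211 CPM in cko. Most of this rise was that of *Elavl4* and *Elavl2*, and 3 of the 7 genes had negative log2 fold changes. The summed level of the vesicle genes was 1370 and 1250 CPM in ctrl and 1100, 988 and 1010 CPM in cko. The vesicle sum is mostly *Syt11* (1112 and 964 CPM in ctrl, 815, 694 and 705 CPM in cko). Its fall is that of this gene and does not stand for the other vesicle genes.

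A wider list held 74 other genes of the same processes, of which 73 were counted and 64 tested. Of the tested genes 6 were higher (9.38%, against 7.86% of all tested genes) and 9 lower (14.1%, against 8.57%). The share called higher was thus near that over all genes. Their median log2 fold change was 0.008, with 32 values in each direction. The most significant genes that rose were *Stmn1*, the stathmin of dividing cells (1.19, adjusted p 0.00184), *Tagln3*, a calponin-family protein of neurons (1.06, adjusted p 0.00252), *Basp1*, a growth cone protein like *Gap43* (0.72, adjusted p 0.00294), *Khdrbs3*, a splicing regulator (0.62, adjusted p 0.00954) and *Snap91*, a clathrin adaptor of vesicles (0.45, adjusted p 0.0111). *Khdrbs3* had an adjusted p of 0.0619 without cko 2 and 0.0606 without cko 3, and *Snap91* 0.0704 and 0.0735. Those that fell were *Cplx2*, a complexin that clamps SNAREs (-0.72, adjusted p 0.00184), *Vamp1*, a paralog of *Vamp2* (-0.81, adjusted p 0.00274), *Cpe*, which trims peptide precursors (-1.14, adjusted p 0.00415), *Sv2c*, a vesicle glycoprotein (-0.84, adjusted p 0.00854), and *Dnm1*, the dynamin of vesicle retrieval (-1.22, adjusted p 0.0116). *Dnm1* had an adjusted p of 0.0578 without cko 2. Of the 8 active zone genes in this list, all tested, 0 were called in either direction, with a median of 0.25.

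**Figure D5:**
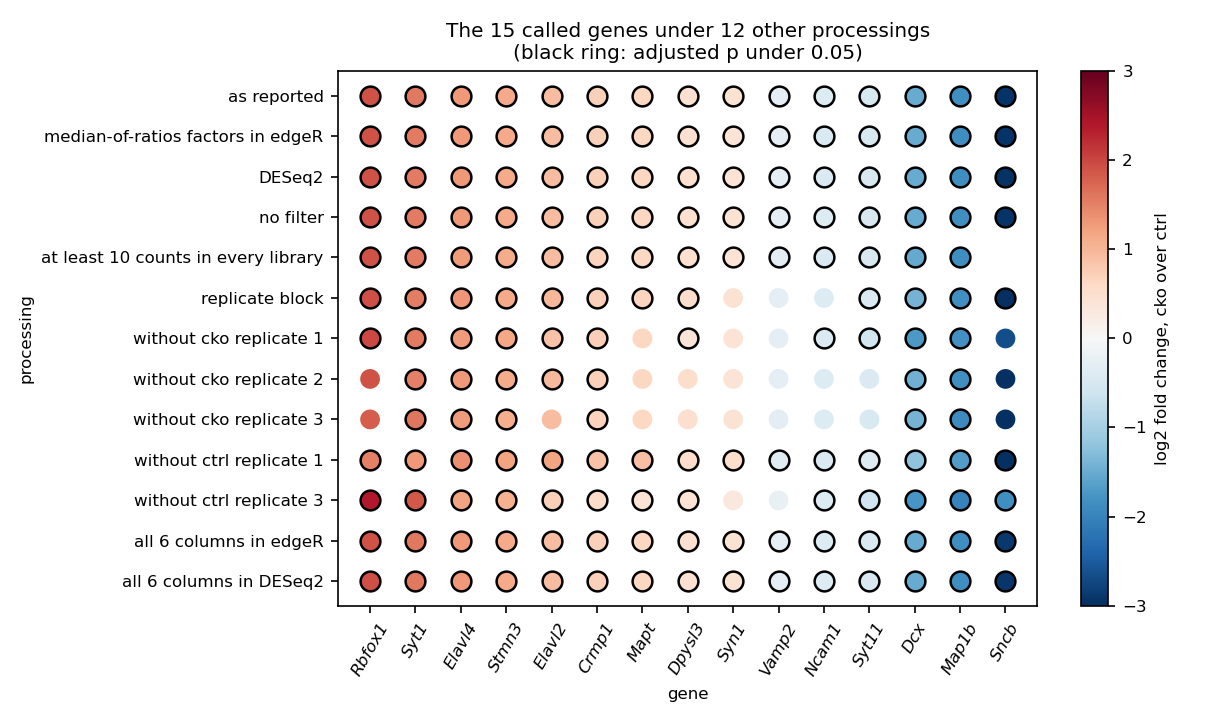
Log2 fold change (colour, cko over ctrl) of the 15 called genes as reported and under 12 other processings, with a black ring where the adjusted p is under 0.05. The 6 genes *Elavl4*, *Dcx*, *Map1b*, *Stmn3*, *Crmp1* and *Syt1* are ringed throughout, and the blank for *Sncb* is a setting in which it was not tested.

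Of the 15 called genes, 6 were called in all 12 alternative processings: *Elavl4*, *Stmn3*, *Crmp1* and *Syt1* as higher, and *Dcx* and *Map1b* as lower. The other 9 lost the call in at least 1 of them. The alternatives draw on the same libraries, and those with all 6 columns enter the averaged ctrl 2 as a library. A call kept in all of them is therefore no independent support. Leaving out a library kept the direction of the 15 genes in 75 of 75 values. In each of these genes every cko library lay on the same side of both ctrl libraries. Removing a library could therefore hardly change a sign, so this count is no test of how firm the directions are. When a gene had to change by over 0.9 on the log2 scale with a raw p under 0.01, which leaves out small differences, 5 genes of the set were higher (*Elavl2*, *Elavl4*, *Rbfox1*, *Stmn3* and *Syt1*), against 2.39% of all tested genes, and 4 lower (*Dcx*, *Map1b*, *Syt4* and *Sncb*), against 4.17%.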

How the data were processed

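NSC RNA was sequenced after library preparation with a SMARTER mRNA kit. The authors aligned the reads to mm10 with HISAT2 and deposited raw read counts per gene, without normalization. The labels list GRCm39 as the build. The counting tool, annotation and strand setting are not given in the sources used here. The deposited column of ctrl 2 holds another kind of value, the rounded-up mean of ctrl 1 and ctrl 3, and was counted in no n. Gene names, positions and exon lengths were taken from GENCODE M21 (GRCm38), in which 31829 of 32493 IDs were found, and promoter windows from RefSeq (GRCm38.p6). Of the 38 genes, 13 share exon bases with another annotated gene and are uncertain to that extent.

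The count test was edgeR 4.0.16 in R 4.3.3 (filterByExpr, TMM factors of 0.99 to 1.007, quasi-likelihood test), which tested 16710 genes across all genes of the table. CPM are TMM-normalized, SE is the log2 fold change over the square root of F, and called means a Benjamini-Hochberg adjusted p under 0.05. The steps were tested on simulated data in which 200 genes changed by 1.5 on the log2 scale. Of these, edgeR recovered 80%, with 3.03% of its calls false, and DESeq2 81.5%, with 8.94% of its calls false. Alternatives were DESeq2 1.42.0, other size factors and filters, a replicate block, leaving out each library, and all 6 columns. The genes and lists were chosen with earlier results of these data known. Values were given in every library for members with a call, beyond 0.9 on the log2 scale at a raw p under 0.01, or with a change of call under an alternative, and for *Map2*. Members that changed only in sign were given by the range of their log2 fold changes. In the wider list up to 5 genes in each direction were named by their p. No RefSeq promoter window was listed for *Mapt*, *Gap43*, *Vamp2*, *Thy1*, *Nefm*, *Syt4*, *Snap25*, *Stmn2*, *Ncam1*, *Nefl*, *Nefh*, *Celf4* and *Dpysl3*. Figures were drawn with matplotlib 3.10.9.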

Additional observations from a re-analysis of the deposited data

How the results depend on the processing

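With 2 ctrl libraries, leaving one out rests on a single ctrl library that is assumed to vary like the cko libraries. The called genes of the set numbered 4 to 12 in the higher and 2 to 9 in the lower direction over the fits without 1 library, where 9 and 6 were reported. With no filter, 10 were called lower, and with the limit on fold change and unadjusted p, 5 were called higher. In the wider list 3 to 16 were higher and 4 to 13 lower without 1 library, and 12 were higher by DESeq2, 14 with no filter, 16 with all 6 columns by either tool and 3 with the fold limit, which also left 3 lower. Over all genes, 317 to 1812 were higher and 416 to 2062 lower without 1 library. All 6 columns, with the averaged ctrl 2 among them, gave 2865 higher and 2794 lower by edgeR and 2593 and 2630 by DESeq2. No filter gave 2237 lower, and the fold limit 399 and 696. The median log2 fold change of the set ran from -0.004 with no filter to 0.164 without ctrl 1, and the median over all genes from -0.012 to 0.013.

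Of 417 alternative values of single genes of the set, 351 kept direction and call, 31 gained a call, 26 lost it, and 9 had the opposite sign. Those 9 were all of genes not called here and came from leaving out 1 library, over which the values ran from -0.445 to 1.07 for *Scg3*, -0.708 to 0.381 for *Thy1*, -0.408 to 0.089 for *Stx1a*, -0.289 to 0.099 for *Celf3*, -0.26 to 0.1 for *Ina*, -0.414 to 0.016 for *Scg2*, -0.552 to 0.196 for *Chga* and -0.12 to 0.273 for *Rbfox3*, which changed sign in 2 of them (-0.072 without cko 1). The cause was not tested.

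The replicate numbers shared by genotypes are not said to mark a litter or day. Deviations from the group means correlated at r = 0.143 for replicate 1 and 0.051 for replicate 3 over 16710 genes, with only 2 numbers usable. With ctrl 2 left out, cko 2 has no ctrl library of its number, so in a fit with the replicate block it does not inform the genotype difference. With this block, 9 genes of the set were higher and 4 lower, 9 and 9 of the wider list, and 918 and 1065 of all genes. The median of the set was 0.150. Of the set, *Gap43* was called under the block (0.573, adjusted p 0.0147), and *Syn1* (0.0615), *Vamp2* (0.143) and *Ncam1* (0.0514) were not.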
